A study of Mus musculus with 6 samples.

Results

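The respiratory chain genes studied here were the protein-coding mouse genes of the mm10 RefSeq table whose symbols start with Nduf, Uqcr, Cox4, Cox5, Cox6, Cox7, Cox8 or Atp5, together with Sdha, Sdhb, Sdhc and Sdhd. This rule used symbols alone and no measured value. It gave 96 of 21883 protein-coding genes, and 19 further symbols of pseudogenes or noncoding genes were left out. Complex I was represented by 39 subunit genes, complex II by 4, complex III by 8, complex IV by 20 and complex V by 17. A further 8 genes (Ndufaf1 to Ndufaf8) encode factors that assemble complex I and are not subunits, and Ndufa4 and Ndufa4l2 were described with complex IV.

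Accessible chromatin had been profiled by ATAC-seq, which sequences DNA that a transposase can reach, in nuclei of the ventral tegmental area (VTA), a midbrain region with many dopaminergic neurons. The control group had genotype Ogtflox-/Y and the knockdown group genotype Ogtflox+/Y, with 3 libraries each. Animals of both genotypes carried the same 2 viruses in the VTA, AAV-TH-Cre and the Cre-dependent reporter AAV-DIO-H2B-EGFP, so that controls also received Cre, and EGFP+ nuclei were sorted from both. The comparison asks how lowering Ogt, which encodes the enzyme that adds O-GlcNAc sugars to proteins, alters accessible chromatin in these neurons. TH names tyrosine hydroxylase, and sorted nuclei depend on where that vector was active. Knockdown replicate 1 carries genotype Ogtflox+/Y in its label but Ogtflox-/Y in its title, and the genotype label was used. Ages and any pooling of animals are not given in the labels, nor whether libraries came from separate animals. Each p-value then rests on library-to-library spread alone, and that spread may be technical.

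The respiratory chain sits in the inner mitochondrial membrane. Complex I takes electrons from NADH and complex II takes them from succinate, and both pass them by ubiquinone to complex III, then by cytochrome c to complex IV, where oxygen is reduced. Complexes I, III and IV pump protons, and complex V, the ATP synthase, uses the gradient to make ATP. All subunits of complex II and most subunits of the other complexes are encoded in the nucleus, as are all genes described here. Dopaminergic neurons of the midbrain fire spontaneously and have a high energy demand, and complex I toxins damage them.

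Libraries held 34384319 to 66853563 reads, of which 36.56% to 38.16% fell in the 193148 regions in control and 30.95% to 37.01% in knockdown. The level of a region is given as CPM, its read count scaled to the library's reads in all regions with TMM factors. A count of 3 reads corresponded to 0.1172 to 0.2378 CPM depending on the library. The start region of Ogt (chrX:101639785-101640185) measured 11.1, 11.1 and 9.09 CPM in control replicates 1, 2 and 3 and 17.9, 15.0 and 14.7 CPM in knockdown replicates 1, 2 and 3, and it was called higher in knockdown. That value is accessibility and checks neither the RNA nor the allele. Dopaminergic marker start regions summed to 225 to 434 CPM in control and 237 to 308 CPM in knockdown. Th, whose name the Cre vector also carries, made up most of that sum, with 178, 379 and 245 CPM in control and 238, 183 and 172 CPM in knockdown. The other 9 markers measured 2.65 to 17.7 CPM each and summed to 47.1 to 65.8 CPM in control and 64.6 to 78.5 CPM in knockdown. GABAergic marker start regions summed to 31.0 to 41.3 CPM in control and 46.8 to 63.2 CPM in knockdown. Of 6 astrocyte markers, 3 had a start region, all 3 were called higher, and their sum was 4.14 to 4.69 CPM in control against 24.8, 7.53 and 24.3 CPM in knockdown replicates 1, 2 and 3. Of 6 oligodendrocyte markers, 4 were called higher, with sums of 32.6 to 36.3 CPM in control and 60.4, 31.8 and 37.7 CPM in knockdown replicates 1, 2 and 3. In bulk nuclei, fewer cells of a type and less accessible chromatin per cell cannot be told apart, and the part of these other cell types in the results was not tested.

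Promoter sequences are shown for the members on which the results below turn. RefSeq gives 83 windows of 300 bases for 78 of the 96 members, so some members have several. Each runs from 250 bases before to 50 bases after a start, on assembly GRCm38.p6 (mm10). A single window is printed per member. Ndufb5, Sdhb, Cox8a and Atp5j have the start regions of most CPM in complexes I, II, IV and V, and Uqcrq, that of complex III, is named only. Per kb of region the highest of complexes I and V were instead Ndufv2 (129 CPM per kb) and Atp5b (121 CPM per kb). Ndufa10 holds the largest gain, Ndufa3 and Uqcr10 are the losses, and Sdhd holds more kinds of the motifs below than any other of these. Capitals mark matches, on either strand, to 6 motifs of factors known for respiratory genes: GCGCANGCG (NRF1), CCGGAAG (ETS family, which includes GABP), AANATGGC (YY1), GGGCGG (SP/KLF), TGACGTCA (CRE) and AAGGTCA (ERR). No motif contains another, and the window can extend past the region.
Ndufb5, complex I, chr3:32736813-32737112, plus strand: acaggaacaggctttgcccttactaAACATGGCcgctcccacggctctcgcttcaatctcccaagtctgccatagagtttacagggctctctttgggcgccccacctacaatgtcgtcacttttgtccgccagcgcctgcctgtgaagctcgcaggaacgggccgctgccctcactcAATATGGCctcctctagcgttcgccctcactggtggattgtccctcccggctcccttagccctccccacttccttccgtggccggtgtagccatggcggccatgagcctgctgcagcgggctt
Sdhb, complex II, chr4:140961021-140961320, plus strand: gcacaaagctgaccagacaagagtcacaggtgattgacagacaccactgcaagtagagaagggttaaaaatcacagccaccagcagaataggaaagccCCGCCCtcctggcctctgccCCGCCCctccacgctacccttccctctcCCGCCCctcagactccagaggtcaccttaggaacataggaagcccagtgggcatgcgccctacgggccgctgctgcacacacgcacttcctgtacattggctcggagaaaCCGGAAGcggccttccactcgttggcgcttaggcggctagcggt
Cox8a, complex IV, chr19:7217567-7217866, minus strand: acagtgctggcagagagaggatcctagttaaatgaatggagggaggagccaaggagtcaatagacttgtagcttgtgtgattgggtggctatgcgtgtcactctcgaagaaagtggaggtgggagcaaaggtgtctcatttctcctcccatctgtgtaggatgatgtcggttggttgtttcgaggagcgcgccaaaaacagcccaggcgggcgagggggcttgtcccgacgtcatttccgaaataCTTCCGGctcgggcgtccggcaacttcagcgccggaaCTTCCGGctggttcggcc
Atp5j, complex V, chr16:84835576-84835875, minus strand: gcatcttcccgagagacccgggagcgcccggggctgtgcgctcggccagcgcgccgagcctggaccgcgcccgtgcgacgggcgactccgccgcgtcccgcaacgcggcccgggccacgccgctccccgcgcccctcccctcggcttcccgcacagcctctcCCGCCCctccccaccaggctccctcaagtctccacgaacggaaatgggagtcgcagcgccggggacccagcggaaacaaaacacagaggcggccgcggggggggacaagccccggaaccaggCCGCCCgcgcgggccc
Ndufa10, complex I, largest gain, chr1:92473709-92474008, minus strand: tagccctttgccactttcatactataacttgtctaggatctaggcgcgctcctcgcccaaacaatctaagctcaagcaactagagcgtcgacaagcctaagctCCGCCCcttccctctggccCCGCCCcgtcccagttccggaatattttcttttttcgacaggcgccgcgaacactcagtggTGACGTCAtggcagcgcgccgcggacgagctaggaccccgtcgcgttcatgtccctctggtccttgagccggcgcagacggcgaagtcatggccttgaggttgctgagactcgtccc
Ndufa3, complex I, loss, chr7:3617123-3617422, plus strand: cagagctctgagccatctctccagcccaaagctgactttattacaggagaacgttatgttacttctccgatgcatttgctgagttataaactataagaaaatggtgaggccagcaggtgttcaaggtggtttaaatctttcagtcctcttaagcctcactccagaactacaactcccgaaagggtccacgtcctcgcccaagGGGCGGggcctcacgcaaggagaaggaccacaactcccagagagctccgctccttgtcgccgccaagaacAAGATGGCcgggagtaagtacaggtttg
Uqcr10, complex III, loss, chr11:4704295-4704594, minus strand: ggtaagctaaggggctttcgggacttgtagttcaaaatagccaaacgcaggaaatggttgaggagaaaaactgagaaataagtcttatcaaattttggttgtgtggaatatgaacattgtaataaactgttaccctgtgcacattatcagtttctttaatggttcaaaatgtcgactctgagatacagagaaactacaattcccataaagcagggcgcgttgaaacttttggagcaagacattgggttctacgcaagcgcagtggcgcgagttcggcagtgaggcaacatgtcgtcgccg
Sdhd, complex II, 4 kinds of motif, chr9:50603800-50604099, minus strand: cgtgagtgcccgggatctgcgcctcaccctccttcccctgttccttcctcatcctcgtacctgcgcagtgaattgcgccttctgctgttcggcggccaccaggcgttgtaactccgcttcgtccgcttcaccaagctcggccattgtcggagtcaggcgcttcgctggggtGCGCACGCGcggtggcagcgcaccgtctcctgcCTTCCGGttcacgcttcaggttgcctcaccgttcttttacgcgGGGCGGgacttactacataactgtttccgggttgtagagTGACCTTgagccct

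In the windows printed, Ndufb5 carried a pair of YY1 matches, Cox8a a pair of ETS matches and Atp5j a pair of SP/KLF matches. In the counts below, Atp5j is also among the members with ETS and YY1 letters, which its printed window does not hold. Ndufa10 held a CRE match beside its SP/KLF matches, and Uqcr10 held none of the 6 motifs. The window of Sdhd, which encodes a membrane anchor of complex II, held NRF1, ETS, SP/KLF and ERR matches. A match is a run of letters and does not show that a factor binds, and no match says only that these letters are not in the window.

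Over all 78 members with a window, the NRF1 motif was found in 22 (28.2%), against 9.63% of all 17491 protein-coding genes with a window and 15.0% of the 10369 other genes with a start region. YY1 letters were in 24.4% of members, against 7.46% and 9.28% of the same sets. The ETS motif was also in 24.4% of members, against 12.9% and 18.9%, and the ERR motif in 10.3%, against 4.73% and 3.49%. CRE letters occurred in 5.13% of members (Ndufa10, Ndufa11, Ndufb2 and Uqcrfs1), against 2.54% and 3.65%. SP/KLF letters were the exception in direction, in 44.9% of members against 49.2% of all genes and 70.7% of the other genes with a start region. Median GC content was 58.3% over the 83 windows of members, 56.3% over all 21262 windows and 61.0% over windows of other genes with a start region.

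Nearly all members had an accessible start. The start region of a gene was the most accessible region overlapping its RefSeq window or, where no window is given, lying within 1000 bp of either gene bound. Such a region was present for 87 of the 96 members (90.6%), 72 found from windows and 15 from bounds, against 61.5% of all protein-coding genes. As either bound was accepted, the 15 found from bounds may lie at the end of a gene and not at its start. Uqcrq, Sdhc, Cox4i1, Cox4i2 and Cox6a2 are among them. Of the 87, 33 (37.9%) also overlapped the start of another gene, against 8.47% of all start regions, and their values cannot be assigned to either gene alone. The members without a start region included Atp5g1, Cox7b2, Cox8b, Cox8c, Ndufa13, Ndufa6, Ndufb4b and Ndufb4c. Cox8b, Cox7b2 and Cox8c encode isoforms known for muscle or testis, and Ndufa6 had no region within 10 kb.

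Per kb of region, the median level of the 87 start regions was 59.7 CPM per kb, beside 53.3 CPM per kb over all 12462 start regions. The highest mean levels were those of Uqcrq (146 CPM per kb), a small subunit of complex III, Sdhb (143 CPM per kb), the iron-sulfur subunit of complex II, and Ndufaf8 (142 CPM per kb). At the other end stood Cox4i2 (2.49 CPM per kb) and Cox6a2 (4.14 CPM per kb), isoforms of complex IV known for lung and for heart and muscle. Both regions were found from gene bounds, so these levels may not be those of the starts. Cox6b2, known for testis, stood at 16.5 CPM per kb and Cox7a1, known for heart and muscle, at 24.3 CPM per kb. Their widely expressed relatives Cox4i1, Cox6a1, Cox6b1 and Cox7a2 measured 83.8, 88.3, 58.2 and 81.6 CPM per kb. Leaving out the 4 tissue isoforms, the lowest level was that of Cox7b, at 13.6 CPM per kb. Medians by complex were 52.5 CPM per kb for complex I, 71.1 for complex II, 65.2 for complex III, 58.2 for complex IV and 63.1 for complex V, and the ranges of the complexes overlapped.

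**Figure D1:**
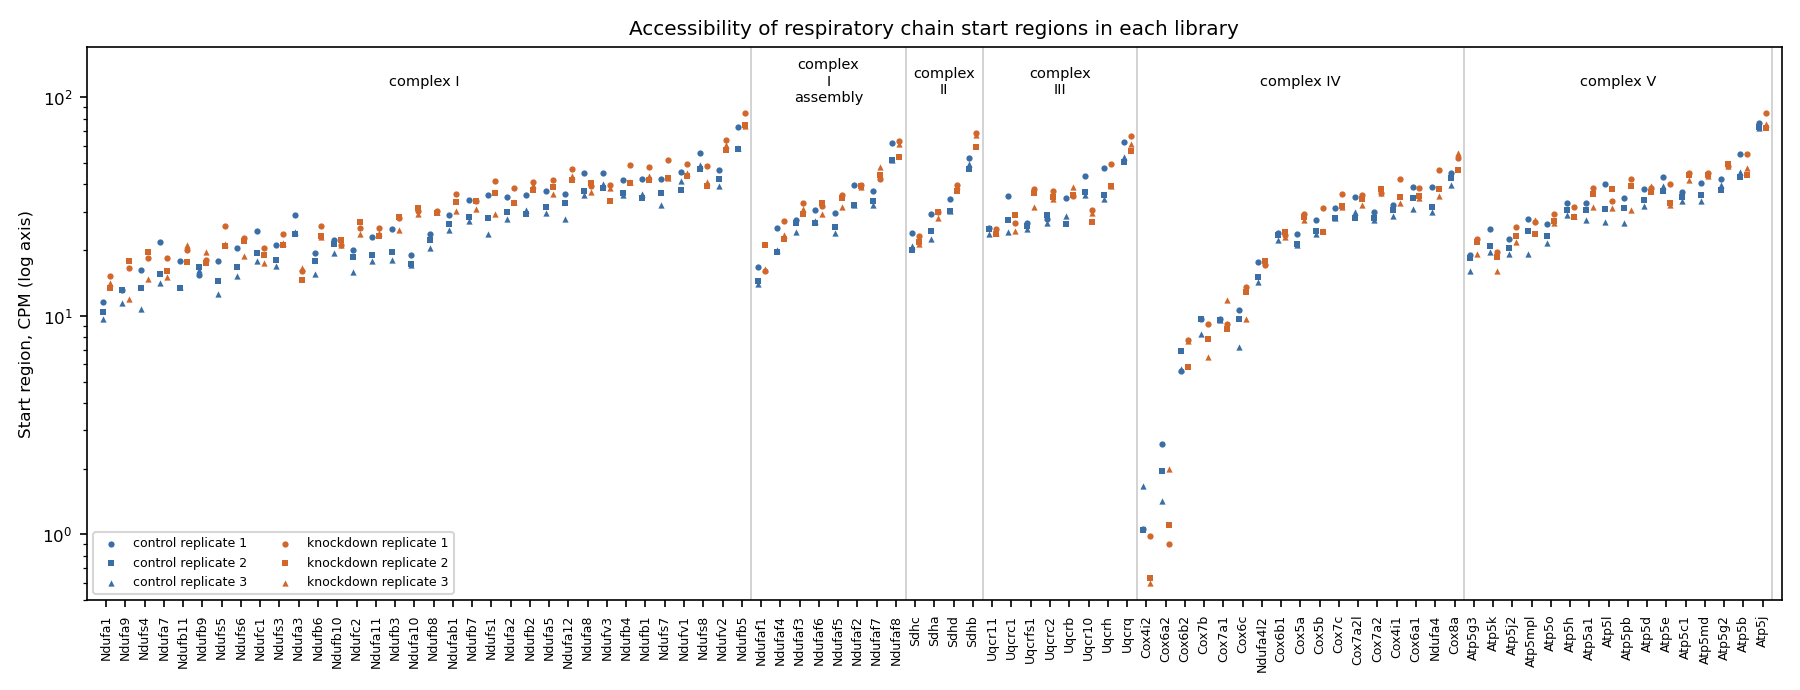
Accessibility of the 87 start regions in each library (CPM, log axis), ordered by complex and mean level, with a marker per replicate and a colour per group. Most members lie within a narrow band, Cox4i2 and Cox6a2 lie lowest, and control replicate 1 is the highest control at 82 of the 87.

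In knockdown, 27 of the 87 start regions rose and 2 fell, by the quasi-likelihood test of edgeR with a Benjamini-Hochberg adjusted p under 0.05 over all regions, and 58 passed in neither direction. The shares were 31.0% higher and 2.30% lower, beside 36.6% higher and 5.58% lower over all 12462 start regions, and beside 15.4% higher and 12.7% lower over all 191693 regions tested. The median log2 fold change of knockdown over control was 0.23 at the members, with an interquartile range of 0.071 to 0.32, and 0.23 at all start regions. With TMM scaling and all libraries, the members as a group therefore showed no share or median above that of start regions at large. All 3 knockdown libraries lay above all 3 control libraries at 32 members (36.8%, beside 45.7% of all start regions) and below them at 3 (3.45%, beside 9.10%).

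The direction of this group depended on scaling. The members' median was 0.23 with TMM scaling and 0.12 when scaled by reads in regions, but -0.037 when scaled by library totals and -0.018 with loess curves of count on accessibility. With reads in regions 14 members were called higher (16.1%) and 6 lower (6.90%), beside 25.4% and 9.27% of all start regions. With library totals 1 was called higher (1.15%) and 11 lower (12.6%), beside 4.98% and 13.6%. With loess curves 5 were called higher (5.75%) and 14 lower (16.1%), beside 12.2% and 14.3%. Library totals moved the median of all regions from -0.0063 to -0.27 and that of all start regions from 0.23 to -0.035, so the members moved with start regions at large. Their median stayed within 0.034 of that of all start regions under each scaling and each library left out. When libraries were grouped by title, which places knockdown replicate 1 with the controls, no member passed, and neither did any other region. Of the 87 members, 5 had an unadjusted p under 0.05, beside 23035 of the 193148 regions. The members' median was 0.08, beside 0.091 at all start regions. Without control replicate 2 the gains numbered 12 (13.8%), beside 20.6% of all start regions. Without control replicate 3 they numbered 11 (12.6%), beside 21.2%. The 2 losses remained in both.

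**Figure D2:**
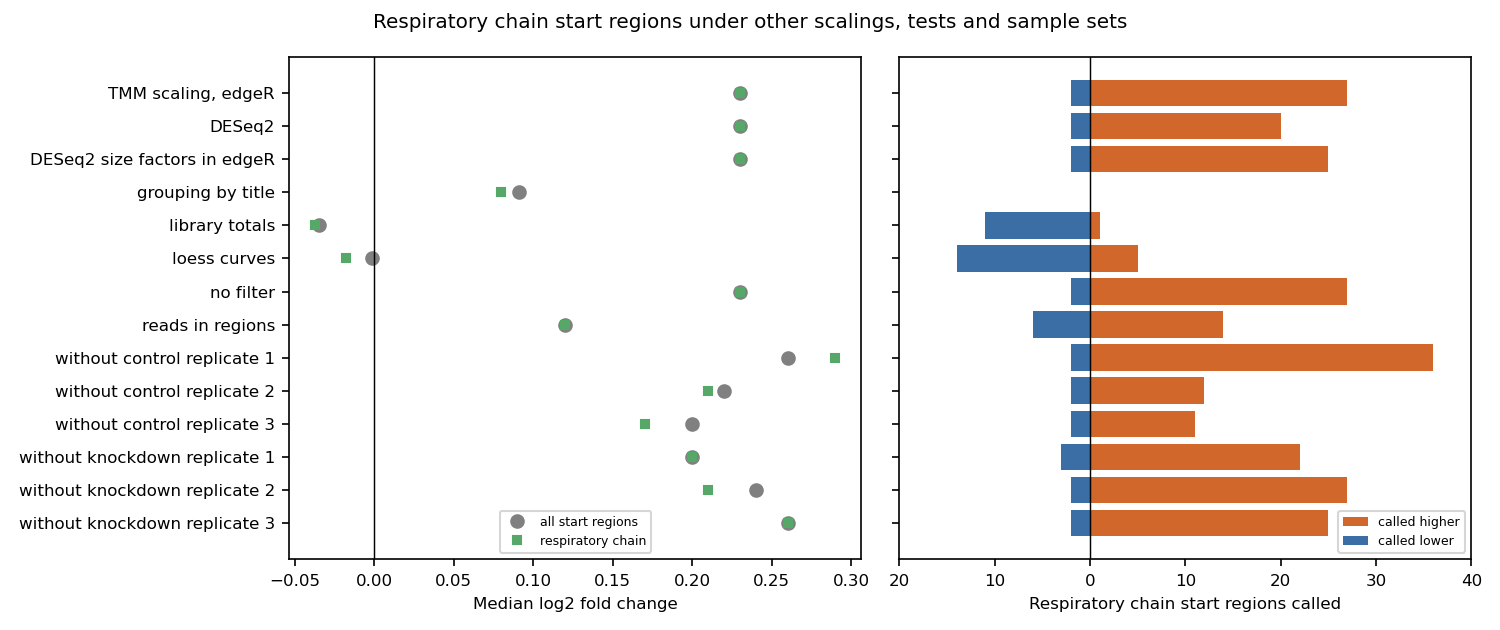
Left, median log2 fold change (knockdown over control) of the members and of all start regions under each scaling, test or set of libraries; right, the number of members called higher (to the right of 0) and lower (to the left). The members' median follows that of all start regions throughout and is below 0 with library totals and with loess curves.

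Control replicate 1 was the highest control at 82 of the 87 members (94.3%), beside 58.4% of the other start regions and 75.0% of those in the 5 most accessible of 10 bins. Knockdown replicate 1 was the highest knockdown library at 61 members (70.1%), beside 57.4% and 70.3%. Relative to the control mean, the members' median was 0.15, -0.043 and -0.10 (log2) in control replicates 1, 2 and 3 and 0.31, 0.19 and 0.14 in knockdown replicates 1, 2 and 3. Control replicate 1 thus lay within the range of the knockdown libraries. Without it, 36 members were called higher (41.4%) and 2 lower (2.30%), with a median of 0.29. Over all start regions the shares were then 34.7% and 3.80% and the median 0.26. In this setting the members' share called higher was above that of start regions at large, a difference that was not tested.

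By complex, the share of start regions that rose was 14 of 34 in complex I (41.2%), 2 of 8 among its assembly factors, 2 of 4 in complex II, 3 of 8 in complex III, 3 of 17 in complex IV (17.6%) and 3 of 16 in complex V (18.8%). The losses were 1 in complex I and 1 in complex III. Median log2 fold changes were 0.29 for complex I, 0.22 for the assembly factors, 0.26 for complex II, 0.14 for complex III and 0.17 for both complexes IV and V. With library totals the median of complex I was 0.019 and those of the other 5 groups were below 0. At matched accessibility, other genes' start regions were called higher in 40.7% of cases for complex I, 45.5% for the assembly factors, 45.3% for complex II, 48.6% for complex III, 35.6% for complex IV and 46.2% for complex V. Over all members the matched share was 42.1% and the matched median 0.24. Complexes I and II stood close to their matched shares, and the 2 of 4 in complex II are too few to place it above. The assembly factors (25.0%) and complex III (37.5%), on 8 genes each, and complexes IV and V stood below theirs. These differences in share were not tested, as genes are not replicates.

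**Figure D3:**
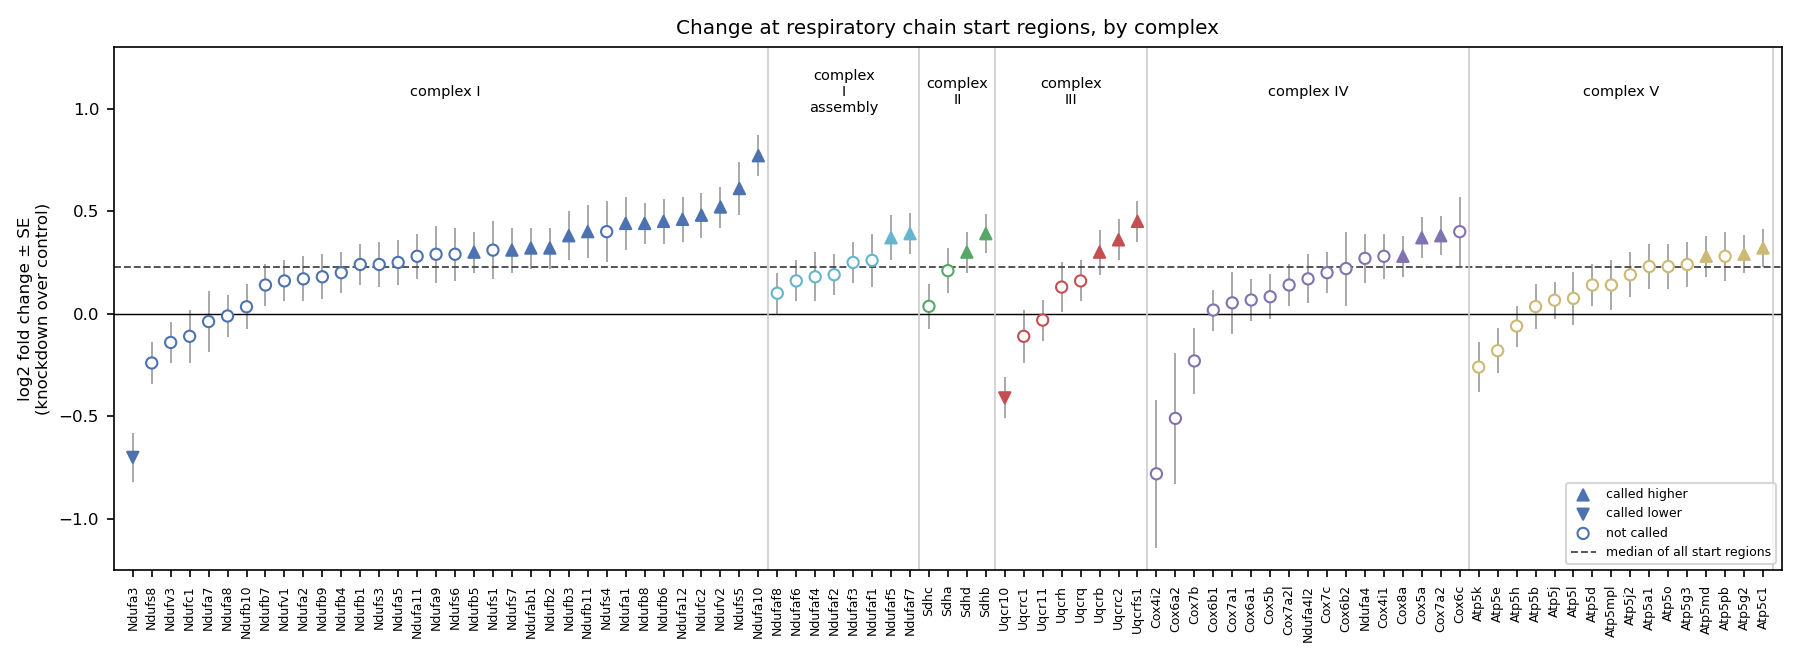
Log2 fold change (knockdown over control) with its SE at each of the 87 start regions, grouped by complex; filled triangles passed the test, open circles did not, and the dashed line is the median of all start regions. With TMM scaling, as drawn, most points lie above 0 and around the dashed line; Ndufa10 is the largest called gain and Ndufa3 the largest called loss.

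Accessibility itself went with the calls. Among other genes, the share called higher was 13.7% in the least accessible of the 10 bins and 53.9% in the most accessible bin, and the median log2 fold change was -0.033 and 0.29 in those bins. Of the members, 56 lay in the 5 most accessible bins, 20 in the top 2 and 4 in the lowest 2. All 4 in the lowest bins belonged to complex IV, and none of them passed the test. In the most accessible bin 3 of 7 members rose, with a median of 0.16.

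**Figure D4:**
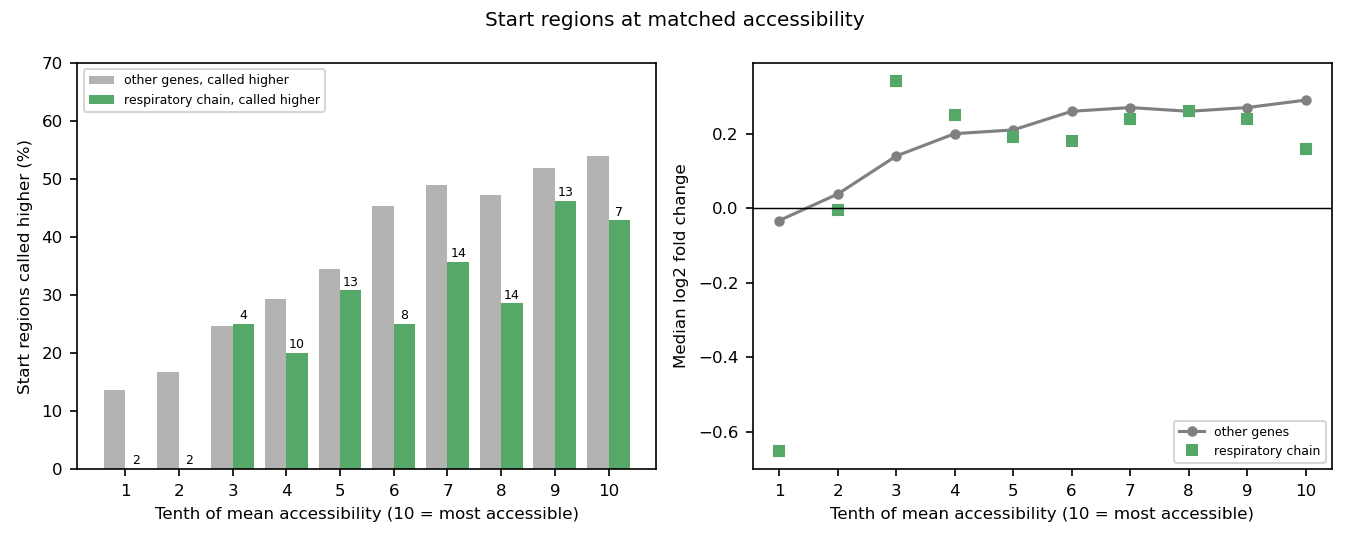
Left, share of start regions called higher in each of 10 bins of mean accessibility, for other genes (grey) and for respiratory chain genes (green, with the number of members above each bar); right, the median log2 fold change in the same bins. Both rise with accessibility among other genes, and the members' bars rest on 2 to 14 genes each.

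Complex I, the NADH dehydrogenase, held the largest gain. Ndufa10 encodes an accessory subunit. Its start region (chr1:92473640-92474040) measured 18.9, 17.3 and 17.1 CPM in control replicates 1, 2 and 3 and 30.1, 31.3 and 29.3 CPM in knockdown replicates 1, 2 and 3. The groups did not overlap, and knockdown replicate 2 was the highest. It rose by a log2 fold change of 0.77 (SE 0.10, adjusted p = 5.0e-05). Of the 27 gains, this was the only one called under all 12 alternatives that keep the grouping by genotype, with a log2 fold change between 0.50 and 0.82 and adjusted p between 8.1e-08 and 0.0041. Grouped by title it was 0.53 with adjusted p = 0.41, in a grouping where no region at all passed. Of 9 regions within 10 kb of Ndufa10, 5 rose and none fell, and a region inside the gene (chr1:92472929-92473329) went from 2.78 ± 0.116 CPM (SD, n = 3) to 9.27 ± 1.33 CPM.

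Ndufb5, an accessory subunit of the membrane arm, had the most accessible start region of complex I by CPM. That region (chr3:32736354-32737393), shared with Mrpl47, measured 73.1, 58.2 and 58.8 CPM in control and 84.6, 75.0 and 73.6 CPM in knockdown. All knockdown libraries lay above all controls, the lowest by a small margin over control replicate 1. This gave a log2 fold change of 0.30 (SE 0.10, adjusted p = 0.037). This call was lost without control replicate 2 (0.24), control replicate 3 (0.25), knockdown replicate 1 (0.25) or knockdown replicate 3 (0.36), with DESeq2 (0.30, adjusted p = 0.051), with library totals (0.033) and with reads in regions (0.19), and the value turned to -0.074 with loess curves.

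Of the other 12 complex I gains, named after their values were seen, 2 are core subunits. Ndufv2, which carries an iron-sulfur cluster of the arm that binds NADH, measured 46.3, 42.1 and 39.2 CPM in control and 63.8, 57.5 and 60.7 CPM in knockdown, with no overlap. Its log2 fold change was 0.52 (adjusted p = 8.7e-04). Ndufs7, another iron-sulfur subunit, measured 42.3, 36.7 and 32.1 CPM against 51.7, 42.7 and 42.9 CPM, with a log2 fold change of 0.31 (adjusted p = 0.045). Among core subunits that did not pass, Ndufv1 was at 0.16, Ndufs1 at 0.31, Ndufs3 at 0.24 and Ndufs8 at -0.24. The accessory subunits that rose were Ndufs5 (0.61), Ndufc2 (0.48), Ndufa12 (0.46), Ndufb6 (0.45), Ndufa1 (0.44), Ndufb8 (0.44), Ndufb11 (0.40), Ndufb3 (0.38), Ndufab1 (0.32) and Ndufb2 (0.32). Ndufab1 is the mitochondrial acyl carrier protein. Core subunits rose in 2 of 6 cases and accessory subunits in 12 of 28, with medians of 0.27 and 0.29. With library totals 26 of the 27 gains of all complexes were no longer called.

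Ndufa3, a small accessory subunit, was the only complex I member whose start region fell, and it was singled out after its values were seen. The region (chr7:3617151-3617551) measured 28.9, 23.6 and 24.3 CPM in control and 16.0, 14.6 and 16.5 CPM in knockdown. Every knockdown library lay below every control by a wide margin, and the spread in the knockdown group was small. Its log2 fold change was -0.70 (SE 0.12, adjusted p = 3.6e-04), and the loss was called in all 12 alternatives with the genotype grouping (-0.96 to -0.60). Grouped by title the value was -0.59 without a call, as at every region. Of the other 2 regions within 10 kb, both nearest to Tfpt, 1 at the start of another gene fell (chr7:3629533-3629933, -0.36, adjusted p = 0.034) and 1 rose (chr7:3629018-3629418, 0.89, adjusted p = 0.023).

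**Figure D5:**
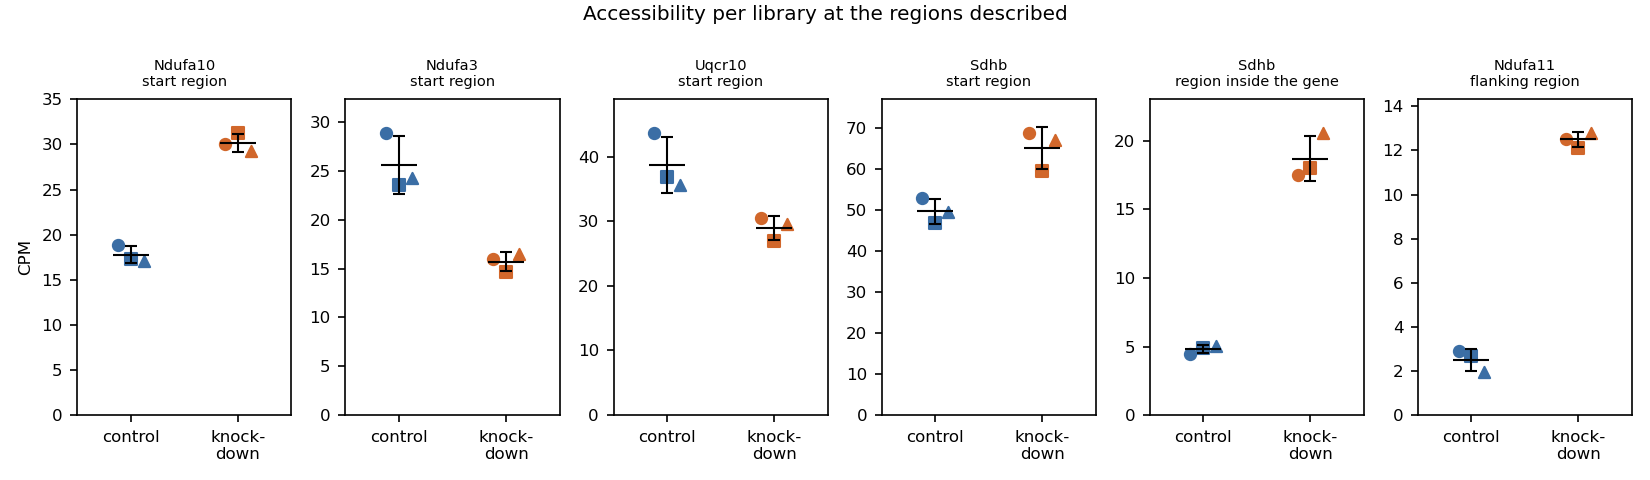
CPM in each library (circles, squares and triangles for replicates 1, 2 and 3) with mean and SD (n = 3) at 6 regions: the start regions of Ndufa10, Ndufa3, Uqcr10 and Sdhb, the region inside Sdhb and the region flanking Ndufa11; each axis starts at 0. In all 6 panels the groups do not overlap; Ndufa10, both Sdhb regions and the Ndufa11 flank are higher in knockdown, and Ndufa3 and Uqcr10 are lower.

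Among the 8 assembly factors of complex I, Ndufaf7 (0.39, adjusted p = 0.0063), a methyltransferase that modifies a core subunit, and Ndufaf5 (0.37, adjusted p = 0.013), a hydroxylase that does so, rose at their start regions. Ndufaf7 measured 37.1, 33.6 and 32.1 CPM in control and 42.4, 44.3 and 47.8 CPM in knockdown, without overlap. All 8 assembly factors had values above 0 with TMM scaling, from 0.10 to 0.39, although their median was -0.046 with library totals. Inside Ndufaf5, whose start rose, a pair of regions fell, at -0.87 and -1.13.

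Complex II, succinate dehydrogenase, is the enzyme shared with the citric acid cycle. Sdhb, its iron-sulfur subunit, had a start region (chr4:140961060-140961460) with 53.0, 46.8 and 49.4 CPM in control and 68.8, 59.4 and 67.0 CPM in knockdown. Control and knockdown did not overlap, and knockdown replicate 2 was the lowest of its group. Sdhb thus rose by 0.39 on the log2 scale (SE 0.095, adjusted p = 0.0055), and the call was lost with library totals (0.13) and with loess curves (0.041).

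Sdhd, a membrane anchor, had a start region (chr9:50603696-50604096), shared with Timm8b, with 34.2, 30.2 and 30.3 CPM in control and 39.7, 37.3 and 39.4 CPM in knockdown. Again every knockdown library was above every control. The log2 fold change was 0.30 (SE 0.10, adjusted p = 0.025), and the call was lost without control replicate 2 (0.27), control replicate 3 (0.27) or knockdown replicate 3 (0.31). It was also lost with library totals (0.041), loess curves (0.029) and reads in regions (0.19).

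Sdha, the flavoprotein that oxidises succinate, had a start region (chr13:74350090-74350860), shared with Ccdc127, with 29.3, 24.5 and 22.5 CPM in control and 29.9, 29.9 and 28.0 CPM in knockdown. Control replicate 1 lay inside the knockdown range, and the region did not pass (0.21, SE 0.11, adjusted p = 0.16) except without that library (0.32, adjusted p = 0.044). The start region of Sdhc, the other membrane anchor (chr1:171150394-171150794), measured 23.9, 20.1 and 20.9 CPM against 23.1, 21.8 and 21.3 CPM. The groups overlapped, and the log2 fold change was 0.036 (SE 0.11, adjusted p = 0.83).

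The largest complex II change lay inside Sdhb, downstream of its start region. That region (chr4:140962933-140963333) measured 4.48, 4.92 and 5.02 CPM in control and 17.5, 18 and 20.6 CPM in knockdown. The groups were far apart and both were tight. This was a log2 fold change of 1.95 (SE 0.14, adjusted p = 9.2e-08), with a range of 1.69 to 2.01 over the 12 alternatives. Of the 7 regions within 10 kb of Sdhb, 3 rose and none fell.

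In complex III, which passes electrons from ubiquinol to cytochrome c, the Rieske iron-sulfur protein gene Uqcrfs1 had the largest change at a start. Its region (chr13:30545174-30545574) measured 26.6, 25.9 and 25.0 CPM in control and 38.2, 36.5 and 31.5 CPM in knockdown. Knockdown replicate 3 was nearest the controls but above all of them. Uqcrfs1 rose by 0.45 on the log2 scale (SE 0.10, adjusted p = 0.0033), and the call was lost with library totals (0.18) and loess curves (0.20). The core protein gene Uqcrc2 (0.36) and the ubiquinone-binding subunit gene Uqcrb (0.30) also rose.

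Uqcrq had the most accessible start region of complex III (chr11:53430875-53431275, 44 bp from the gene and nearest to Gdf9), with 62.2, 50.4 and 53.5 CPM in control and 66.5, 56.7 and 61.5 CPM in knockdown. The groups overlapped, since control replicate 1 exceeded knockdown replicates 2 and 3, and the region did not pass (0.16, SE 0.10, adjusted p = 0.25). Uqcr10, a small subunit singled out after its values were seen, fell. Its start region (chr11:4704134-4704790), shared with Zmat5, measured 43.7, 36.8 and 35.6 CPM in control and 30.5, 26.9 and 29.6 CPM in knockdown. All knockdown libraries lay below all controls. The log2 fold change was -0.41 (SE 0.10, adjusted p = 0.0077) and stayed called in the 12 alternatives with the genotype grouping (-0.68 to -0.31). A flanking region of Uqcr10 rose (0.73, adjusted p = 0.012), and the other 2 regions did not pass.

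In complex IV, cytochrome c oxidase, the gains were at Cox5a (0.37), Cox7a2 (0.38) and Cox8a. Cox8a, the widely expressed form of subunit 8, had the most accessible start region of the complex (chr19:7217462-7217862), with 44.9, 42.9 and 39.8 CPM in control and 52.6, 46.5 and 55.4 CPM in knockdown. The groups did not overlap, but knockdown replicate 2 was close to control replicate 1. The log2 fold change was 0.28 (SE 0.10, adjusted p = 0.038). That call was lost without control replicate 2 (0.28), control replicate 3 (0.23), knockdown replicate 1 (0.28) or knockdown replicate 3 (0.24), and with DESeq2 (adjusted p = 0.06), library totals (0.021) and reads in regions (0.17), and the value was -0.041 with loess curves.

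None of the 4 tissue isoforms with a start region passed. Cox4i2 had the largest change of complex IV in size. Its region (chr2:152765249-152765649, 210 bp from the gene and nearest to Bcl2l1) was found from a gene bound and may not be its start. It measured 1.06, 1.05 and 1.66 CPM in control and 0.983, 0.634 and 0.598 CPM in knockdown, on 8 to 35 reads a library. The groups did not overlap, yet the log2 fold change of -0.78 (SE 0.36) had adjusted p = 0.11. Cox6a2 (chr7:128206180-128206580) measured 2.58, 1.95 and 1.42 CPM against 0.907, 1.11 and 1.99 CPM, with overlap (-0.51, adjusted p = 0.24). Those are levels near the lowest of all start regions, where few reads limit precision.

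Cox6b2 (chr7:4752886-4753286) measured 5.62, 6.91 and 5.73 CPM in control and 7.79, 5.86 and 7.71 CPM in knockdown. Cox7a1 (chr7:30183938-30184338) measured 9.65, 9.53 and 9.61 CPM in control and 9.22, 8.72 and 11.8 CPM in knockdown. In both the groups overlapped, with log2 fold changes of 0.22 (adjusted p = 0.37) and 0.053 (adjusted p = 0.82). The sign of Cox7a1 turned without knockdown replicate 3 (-0.078), and both were below 0 with library totals. Without the tissue isoforms, 3 of 13 complex IV start regions rose and the median was 0.20.

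In complex V, Atp5c1, which encodes the gamma subunit of the central stalk, had the largest change. Its start region (chr2:10079942-10080677), shared with Kin, measured 36.8, 35.0 and 33.4 CPM in control and 45.2, 43.9 and 42.0 CPM in knockdown. Each group was tight, and they did not overlap. The log2 fold change was 0.32 (SE 0.093, adjusted p = 0.016), and the call was lost without control replicate 2 (0.31) or control replicate 3 (0.28). Library totals (0.054), loess curves (0.026) and reads in regions (0.21) also ended it. Atp5g2, a gene for the proton-carrying ring, rose by 0.29 and Atp5md by 0.28 on the log2 scale.

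The most accessible start of complex V by CPM was that of Atp5j, a peripheral stalk subunit (chr16:84834786-84835866). This region is shared with Gabpa, which encodes the DNA-binding subunit of the ETS factor GABP. It measured 76.4, 73.5 and 72.6 CPM in control and 84.5, 72.5 and 75.8 CPM in knockdown. The groups overlapped, with a log2 fold change of 0.066 (SE 0.091, adjusted p = 0.62) that was below 0 with library totals (-0.20), reads in regions (-0.045) and loess curves (-0.32). The catalytic beta subunit gene Atp5b was at 0.035 and did not pass.

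The members' surroundings, starts included, also held changes. In all, 462 regions lay within 10 kb of 95 members, 294 of them nearest to a member and 168 nearest to another gene. Of the 462, 99 overlapped a member's start and 48 that of another gene, while 15653 of all 193148 regions overlapped a start window. Such regions were called higher in 35.3% of cases over all genes, so the 462 differ from all regions in composition. Among the 462, 128 rose (27.7%) and 36 fell (7.79%), beside 15.4% and 12.7% of all regions. Among the 315 that overlap no start window, 82 rose (26.0%) and 32 fell (10.2%), beside 13.7% and 13.3% of all such regions. Inside member genes 38 of 123 rose and 10 fell, with a median log2 fold change of 0.35, and in the flanks 44 of 192 rose and 22 fell, with a median of 0.10. The same values inside and beside other genes were not computed, so these are not shown to be particular to the members. At least 1 gain was found near 68 of the 95 members (71.6%), beside 67.3% of all 17787 protein-coding genes with a region that near. At least 1 loss was found near 26 (27.4%), beside 47.5% of those genes. The members had a median of 5 regions and those genes a median of 6. Both kinds were found near 20 members and neither near 21. With library totals 53 of the 462 regions were called higher (11.5%) and 78 lower (16.9%), beside 6.85% and 24.6% of all regions.

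Changes of at least 2-fold were found at 38 regions that rose (8.23%) and 10 that fell (2.16%). Over all regions, where start windows are rarer, the shares were 6.66% and 5.11%. The largest gain lay 7343 bp outside Ndufa11, nearest to Ranbp3 (chr17:56709728-56710419), with 2.89, 2.66 and 1.94 CPM in control and 12.5, 12.1 and 12.8 CPM in knockdown. Every knockdown library was far above every control (log2 fold change 2.33, SE 0.18, adjusted p = 2.0e-07). A region inside Uqcrb (chr13:66903601-66904001) measured 0.684, 1.25 and 0.473 CPM in control and 2.27, 4.04 and 3.72 CPM in knockdown. A region inside Cox6b1, a widely expressed complex IV subunit gene (chr7:30624847-30625247), measured 1.44, 1.09 and 1.23 CPM against 5.22, 4.12 and 3.19 CPM. Neither showed overlap between groups. Their log2 fold changes were 1.99 (SE 0.33, adjusted p = 3.7e-04) and 1.75 (SE 0.26, adjusted p = 1.4e-04), and the 9 regions of large change described here were called in all 12 alternatives with the genotype grouping.

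The largest loss lay 7629 bp from Cox8c, the testis form of subunit 8 (chr12:102908163-102908563), with 2.58, 1.91 and 2.27 CPM in control and 0.605, 0.317 and 0.532 CPM in knockdown, on 4 to 8 reads a knockdown library. The groups did not overlap (log2 fold change -2.17, SE 0.34, adjusted p = 2.1e-04). Cox7b2, known for testis, held 4 losses among its 10 regions and no gain. The largest (chr5:71485448-71485848) measured 4.56, 2.46 and 1.99 CPM against 0.832, 0.872 and 1.06 CPM, with control replicate 1 well above the others (-1.64, SE 0.33, adjusted p = 0.0018).

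Ndufs4, an accessory subunit whose loss causes a complex I deficiency in mice, held 3 losses and 1 gain among 12 regions. The first (chr13:114339015-114339415) measured 5.47, 3.98 and 2.65 CPM in control and 1.21, 0.951 and 1.20 CPM in knockdown (-1.81, SE 0.29, adjusted p = 3.3e-04). The other named loss (chr13:114328391-114328791) measured 4.33, 3.24 and 2.27 CPM against 1.29, 0.951 and 1.20 CPM (-1.48, SE 0.29, adjusted p = 0.0013). In both the controls were widely spread with control replicate 1 highest, while the knockdown libraries were alike and below all controls. The start region of Ndufs4 did not pass (0.40, adjusted p = 0.054), and the gain (0.90, adjusted p = 0.002) lay just beside it.

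A region 1877 bp from Uqcrc2, nearest to Pdzd9 (chr7:120661400-120661800), fell from 3.72, 2.38 and 2.56 CPM to 0.983, 1.19 and 1.20 CPM (-1.32, SE 0.28, adjusted p = 0.0022). Near Atp5d, the delta subunit gene, 8 of 12 regions rose and none fell, although its own start region was at 0.14 (adjusted p = 0.3). Those 8 were mostly nearest to the neighbours Cbarp and Midn, with log2 fold changes of 0.40 to 1.17. Cox5a and Atp5c1 held 5 gains each and no loss.

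Reads summed over all regions within 10 kb gave a gene-wide value for 95 members. Of these, 25 rose (26.3%) and 9 fell (9.47%), beside 18.3% higher and 19.9% lower over all 17789 genes tested, and the median was 0.061 against 0.00016. More members had a start region (90.6%) than protein-coding genes at large (61.5%). Regions overlapping a start window were called higher in 35.3% of cases and other regions in 13.7%. The members' sums therefore differ from those of all genes in composition. With library totals the counts were 4 higher and 10 lower. Without control replicate 2 the gains numbered 13, and without control replicate 3 they numbered 14. The shares over all genes in these settings are not given here, so these counts do not set the members apart. At 13 genes the start region and the sum both rose, at 2 (Ndufa3 and Uqcr10) both fell, and no gene was called in opposite directions. The sum contains the reads of the start region, so this agreement is partly built in. For Ndufaf7, among the 13, the sum is its start region alone (1 region).

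In complex II the sums of Sdha (0.19), Sdhb (0.30) and Sdhd (0.27) rose, 3 of 4. The largest summed gains were at Cox6b2 (0.54), Ndufs5 (0.52) and Atp5g1 (0.48), the last on a single region. The losses were Cox8c (-2.31), Cox7b2 (-0.78), Ndufa3 (-0.63), Cox6a2 (-0.48), Uqcr10 (-0.39), Atp5k (-0.39), Cox8b (-0.34), Ndufs8 (-0.32) and Atp5e (-0.29). The value of Cox8c also rests on a single region, the one 7629 bp from the gene described above, and is no separate evidence. Cox8c, Cox7b2, Cox6a2 and Cox8b are 4 of the 7 tissue isoforms listed, all 7 of which were chosen from complex IV. Of the others listed, Cox6b2 rose (0.54), while Cox4i2 (0.11) and Cox7a1 (0.032) did not pass. Of the 3 regions near Cox8b the only one called was higher, although their sum fell. For Cox7b2 the sums were 32.5, 23.5 and 23.3 CPM in control and 13.6, 16.2 and 16.0 CPM in knockdown, without overlap.

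Other genes of the pathway, from lists drawn up beside the members, were counted at their start regions in the same way. Of 38 assembly factors outside the symbol prefixes, 17 rose and 1 fell, with a median of 0.26. The largest gain was Atpaf1 (0.62, adjusted p = 6.1e-04), which chaperones the beta subunit of complex V, and the loss was Coa3 (-0.41, adjusted p = 0.015), an assembly factor of complex IV. Neither electron carrier gene with a start region passed: Cyc1, a cytochrome of complex III, was at 0.24 (adjusted p = 0.083) and Cycs, cytochrome c, at 0.20 (adjusted p = 0.16). Of 16 citric acid cycle enzymes and pyruvate dehydrogenase subunits, 7 rose and none fell, with a median of 0.24, Idh3b (0.51) leading.

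Of 15 regulators of these genes with a start region, 7 rose and 1 fell, with a median of 0.22. Gabpb1, the partner of Gabpa in GABP, measured 27.6, 27.1 and 24.0 CPM in control and 41.9, 42.5 and 37.9 CPM in knockdown. The groups did not overlap (0.64, adjusted p = 2.4e-04), while the region that Gabpa shares with Atp5j did not pass. Nrf1 (0.35), Yy1 (0.30), Sp1 (0.42), Esrra (0.43), Tfam (0.39), which packages mitochondrial DNA, and Polg (0.47), its polymerase, rose. Pprc1, a coactivator related to PGC-1, measured 34.8, 30.8 and 30.2 CPM against 21.8, 21.3 and 22.7 CPM and fell (-0.53, adjusted p = 0.001). The shares of these lists are to be read beside 36.6% higher over all start regions. They were not matched for accessibility. Among other genes the share called higher ran from 13.7% in the least accessible bin to 53.9% in the most accessible. The lists are therefore not shown to differ from start regions at large.

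Calls were also counted by motif, as a description. With a start region and the NRF1 motif, 5 of 21 members rose, with a median of 0.21, and without it 20 of 51, with a median of 0.25. For the ETS motif 5 of 19 rose with it and 20 of 53 without, with medians of 0.10 and 0.25. For YY1 4 of 19 rose with the motif and 21 of 53 without, and for ERR 3 of 8 and 22 of 64. For SP/KLF 14 of 32 rose with the motif and 11 of 40 without. Of the 4 members with CRE letters 3 rose, namely Ndufa10, Ndufb2 and Uqcrfs1, with a median of 0.39 over the 4 against 0.22 without the letters. Of other genes' start regions, 40.7% with and 37.0% without NRF1 letters were called higher, 39.5% and 37.1% for ETS, 42.1% and 37.1% for YY1, 40.1% and 31.5% for SP/KLF, 44.7% and 37.3% for CRE, and 37.9% and 37.5% for ERR. Among other genes the medians with and without CRE letters were 0.27 and 0.23, and with and without ETS letters 0.24 and 0.23. Ndufa3 holds YY1 and SP/KLF letters and Uqcr10 none of the 6, as printed above.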

How the data were processed

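ATAC-seq tables of 6 libraries were used, 3 control and 3 knockdown. Per the file headers, each table gives reads, RPKM and a normalised score for 193148 regions shared by all libraries, of which 94.6% are 401 bp wide. The deposited read counts are whole and carry no normalization, and they entered the tests unaltered. The deposited RPKM values were used only to recover library totals, and the deposited score was not tested. Build mm10, BWA, MACS2, Picard, SAMtools 1.9, FastQC and Trimmomatic are listed in the submitters' processing notes. What each did, how reads were counted and whether they were shifted is not given in the sources used here. Per the labels' protocols a kit for general DNA libraries was used, and transposition is not mentioned.

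edgeR 4.0.16 in R 4.3.3 fitted the counts over all regions (quasi-likelihood test), with a group term, TMM factors and filterByExpr, which left 191693 regions. A Benjamini-Hochberg adjusted p under 0.05 was a call. Log2 fold changes compare knockdown with control, and SEs come from the F statistic. The test was checked on simulated data with known changes. Tables were prepared in Python 3.11.15 with pandas 2.3.3, and gene bounds and promoter windows came from RefSeq GRCm38.p6. Of 21883 protein-coding genes, 17491 have a window. Start regions had 8 to 1881 reads per library at the members, with a median of 468, and this depth covers counting error only.

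Members, lists and rules were chosen with earlier results of these data known. Named were, per complex, the most accessible start region and the largest change, Sdha to Sdhd, the 5 largest called changes within 10 kb in each direction, and tissue isoforms, of which 1 region is not reported here; other genes were named after their values were seen. Medians per library used a pseudocount of 0.25 CPM. Alternatives were DESeq2 1.42.0 (its test, and its size factors in edgeR), library totals, reads in regions, no filter, grouping by title, each library left out, other distances and a 1.5-fold limit. Loess curves and start regions of 1 gene only were chosen after seeing the data.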

Additional observations from a re-analysis of the deposited data

How the results depend on the processing

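Grouped by title, all counts of calls were 0, also over all regions of the series. The median of all start regions of members was 0.08 instead of 0.23, beside 0.091 over all start regions. Atp5j turned to -0.061, Sdhc to -0.039 and complex III to -0.028. With library totals the members' start regions gave 1 higher and 11 lower calls and a median of -0.037, the regions within 10 kb 53 and 78, and the summed reads 4 higher. With loess curves the start regions gave 5 and 14 calls and a median of -0.018, and with reads in regions 14 and 6. Medians reversed with library totals and with loess curves for complex III (-0.12 and -0.18), complex IV (-0.09 and -0.041), complex V (-0.10 and -0.056) and the assembly factors (-0.046 and -0.013), and for complex II with library totals (-0.008). Single start regions reversed with library totals at Atp5j (-0.20), Cox6b2 (-0.037), Cox7a1 (-0.20), Sdha (-0.057), Sdhc (-0.23) and Uqcrq (-0.11), with loess curves at Atp5j (-0.32), Cox7a1 (-0.0013), Cox8a (-0.041), Ndufb5 (-0.074), Sdha (-0.024), Sdhc (-0.17) and Uqcrq (-0.19), and with reads in regions at Atp5j (-0.045), Cox7a1 (-0.059) and Sdhc (-0.073). The cause was not tested. By construction, fewer regions gave fewer calls: 69 and 81 higher within 0 and 1 kb, 12, 14 and 22 lower within 0, 1 and 5 kb, 76 higher where the nearest gene was a member, and 17 higher and 1 lower at start regions of 1 gene only. A 1.5-fold limit left 77 higher regions within 10 kb and 2 higher and 1 lower start regions. Start regions alone, summed and scaled among themselves, gave 5 genes higher and 14 lower. Regions other than start regions, treated the same way, gave 32 higher and 10 lower.

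Leaving out each library gave 81 to 127 higher and 21 to 34 lower regions within 10 kb, 11 to 36 higher and 2 to 3 lower start regions, 13 to 26 higher and 6 to 9 lower genes on summed reads, and a median of 0.17 to 0.29. Cox7a1 ranged from -0.078 to 0.13 and Sdhc from -0.019 to 0.11. DESeq2 gave 20 higher and 2 lower start regions and lost 7 gains. No paired analysis was possible because the numbers in the titles (1, 3 and 5 against 2, 4 and 6) are not shared between the groups and the labels do not pair them. With 3 libraries a group and few reads at the tissue isoforms, small changes there were not detectable at this depth.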
